A study of Oryza sativa Indica Group with 11 samples.

Results

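The salt response that 2 rice lines had in common was read from an Affymetrix rice array, in tissue of the crown and growing point. The comparison set all 6 arrays of salt-stressed plants against all 5 arrays of control plants in a model with line as covariate, so it used 11 of the 11 arrays. Of 57258 probe sets tested, 14 passed an adjusted p of 0.05, which is a share of 0.0245%. They stand for 10 genes and 3 unannotated probe sets.

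The groups were 3 arrays of salt-stressed IR29, 2 of control IR29, 3 of salt-stressed FL478 and 3 of control FL478. IR29 is an indica cultivar known as sensitive to salt. FL478 is tolerant, a recombinant inbred line bred from IR29 and the landrace Pokkali, so part of its genome is that of IR29. Each sample pooled tissue from several plants, and no label used here states the dose of salt, how long it lasted or how old the plants were. The series' design calls the arrays of a group biological replicates of 1 experiment.

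Salt lowers the water potential outside the plant within a short time and, as sodium moves up the transpiration stream, it becomes toxic in the shoot. Plants answer the osmotic side largely through abscisic acid (ABA), a hormone whose receptors inhibit protein phosphatases of the PP2C family and so release SnRK2 kinases and the bZIP transcription factors that these kinases activate. The ionic side depends on transporters that keep sodium out of the xylem and the growing tissue. The crown holds the shoot meristem and the bases of young leaves, so dividing and elongating cells are part of the sample.

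A probe set is a group of short probes for 1 transcript, and its value is the authors' linear signal intensity. Intensities were put on a log2 scale after adding 16 and were quantile normalized, and changes are salt minus control on that scale, with standard errors and adjusted p-values from limma. Higher levels under salt made up 12 of the 14 calls, or 0.021% of probe sets tested, and lower levels 2, or 0.00349%. Without adjustment, 4144 probe sets, or 7.24%, had a p under 0.05, of which 2056 (3.59%) were higher and 2088 (3.65%) lower. The rises ranged from 1.80-fold to 8.66-fold and the falls from 1.96-fold to 2.66-fold. In all 14, the salt arrays lay wholly on one side of the control arrays in IR29 and again in FL478. Over all probe sets, 0.802% lay wholly above and 0.835% wholly below the controls in both lines. The 14 were chosen on these same arrays, so their separation describes the calls and is no further evidence.

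Sodium transport held the largest change among the called genes with a descriptive name. HKT1;5 (LOC4327757), a sodium transporter that in rice draws sodium back out of the xylem sap, gave intensities of 284, 461 and 205 in salt-stressed IR29 and 67.6 and 40.5 in control IR29. In FL478 it gave 630, 958 and 541 under salt and 67.8, 138 and 121 in controls. Every salt array was above every control array of either line, and the salt arrays of FL478 were all above those of IR29. HKT1;5 rose by 2.37 ± 0.23 on the log2 scale (5.17-fold, limma adjusted p = 0.00155), with changes of 2.22 ± 0.35 in IR29 and 2.49 ± 0.31 in FL478. The difference between the lines, IR29 minus FL478, was -0.27 with a 95% interval of -1.30 to 0.75, so a sizeable difference in either direction is within the interval.

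The other sodium and potassium transporters did not share that size of change. HKT1;5 was the 1 call among 29 measured genes of that list, of which 14 had an estimate above 0 and 15 below, with a median of -0.01. HAK4, a potassium transporter, had an estimate of 0.68 ± 0.20 (limma adjusted p = 0.444), and AKT1, a potassium channel, had -0.62 ± 0.19 (limma adjusted p = 0.476). Neither passed the test.

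Gene families of ABA signalling held 2 calls. PP2C08 (LOC4324182), a protein phosphatase of the PP2C family, gave intensities of 500, 458 and 581 in salt-stressed IR29 and 122 and 181 in control IR29. In FL478 it gave 457, 634 and 597 under salt and 196, 158 and 340 in controls. The salt levels of the lines lay close together, and the highest control, FL478 replicate 3, stayed below the lowest salt array. PP2C08 rose by 1.44 ± 0.20 (2.70-fold, limma adjusted p = 0.0396), by 1.69 ± 0.30 in IR29 and 1.23 ± 0.27 in FL478.

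BZIP23 (LOC4330838), a bZIP transcription factor that ABA activates and that raises salt and drought tolerance in rice, gave 2086, 1788 and 1895 in salt-stressed IR29 and 744 and 702 in control IR29. In FL478 it gave 1306, 1444 and 1716 under salt and 873, 760 and 1125 in controls. On these intensities the salt arrays of IR29 were above those of FL478, while its controls were below those of FL478. After normalization the salt arrays kept that order, but the controls overlapped. Their log2 levels were 9.63 and 9.49 in IR29 and 9.78, 9.62 and 10.17 in FL478. BZIP23 rose by 0.99 ± 0.14 (1.98-fold, limma adjusted p = 0.0474). Its change was 1.35 ± 0.17 in IR29 and 0.69 ± 0.16 in FL478, and the difference of 0.66 had an unadjusted limma p of 0.0151. That difference did not pass adjustment, and BZIP23 was the only 1 of the 14 with an unadjusted p under 0.05 for it.

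Both of these calls were close to the threshold. With 1 array left out at a time, PP2C08 and BZIP23 each kept the call in 2 of 11 fits, those without FL478 control replicate 3 and without FL478 salt replicate 1. In the other 9 fits the limma adjusted p lay between 0.0727 and 0.153 for PP2C08 and between 0.0805 and 0.189 for BZIP23.

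The ABA genes, with the call BZIP23 counted among them, leaned upward. Of 18 genes of ABA synthesis, breakdown and signalling, 11 had estimates above 0 in both lines, or 61.1%, against 27.7% of all 17905 genes, and 3 had estimates below 0 in both. In these lists a gene counts by its brightest probe set, and over all genes 4.76% had an unadjusted p under 0.05 with a rise and 4.41% with a fall. Of the 18 genes, 5 (27.8%) had such a limma p with a rise and 0 with a fall. The list's median change was 0.18, against -0.00069 for all genes, and BZIP23 was its 1 call. Of the others, ABA8OX2, which breaks ABA down, had 0.96 ± 0.21 (limma adjusted p = 0.238), and TRAB1, a bZIP factor that binds ABA-responsive promoters, had 0.45 ± 0.11 (limma adjusted p = 0.316). In each line, the list's mean put all salt arrays above all controls. The log2 of the list's summed level separated in IR29 but overlapped in FL478, at 14.80 to 14.89 under salt and 14.68 to 14.92 in controls. Of 56 PP2C phosphatases, PP2C08 was the 1 call, and the median was 0.002. PP2C30 had 1.37 ± 0.28 (limma adjusted p = 0.206) with no overlap in either line.

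**Figure D1:**
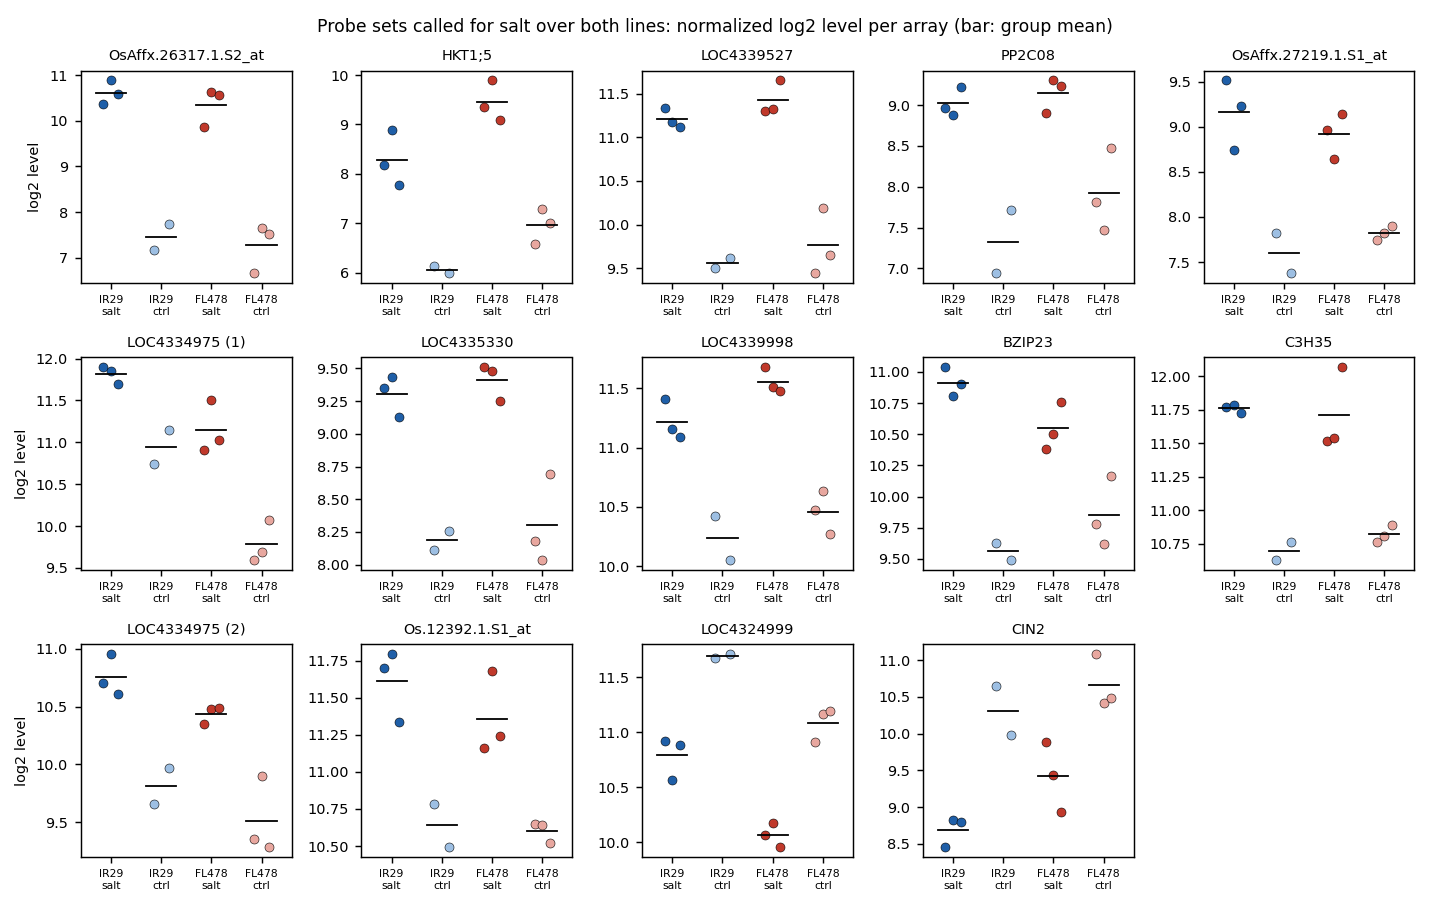
Normalized log2 level of each called probe set on each array, with IR29 and then FL478 on the horizontal axis, salt left of control. Points are arrays and bars group means, and in all 14 panels the salt points lie wholly above or wholly below the control points of the same line.

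Sugar metabolism held the larger of the 2 falls. CIN2 (LOC4335790), a cell wall invertase that splits sucrose outside the cell and feeds sink tissue, gave 349, 440 and 429 in salt-stressed IR29 and 1549 and 991 in control IR29. In FL478 it gave 923, 697 and 480 under salt and 2168, 1355 and 1401 in controls. All salt arrays were below all controls, by the narrowest margin between FL478 salt replicate 1 and IR29 control replicate 2. CIN2 fell by 1.41 ± 0.19 on the log2 scale (limma adjusted p = 0.0317), with changes of -1.62 ± 0.29 in IR29 and -1.24 ± 0.26 in FL478. The call held in 3 of 11 fits that left out 1 array, those without FL478 control replicate 2, FL478 control replicate 3 and FL478 salt replicate 1. In the other 8 the limma adjusted p lay between 0.0740 and 0.124.

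CIN3, the gene next to CIN2 in the RefSeq annotation, had an estimate of -0.16 ± 0.38. Over the 22 measured genes within 2 places of a called gene, 0 were called by limma and the median change was 0.01. An unadjusted limma p under 0.05 was seen for 3 of the 22. Of all genes, 4.76% had such a p with a rise and 4.41% with a fall.

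A pair of sugar genes lay just outside the threshold. SWEET15, which exports sucrose from cells, had log2 levels of 10.45, 9.29 and 11.11 in salt-stressed IR29 and 8.86 and 7.66 in control IR29. In FL478 its levels were 9.83, 9.80 and 10.47 under salt and 6.81, 5.78 and 8.01 in controls. The groups did not overlap within a line, but replicates of 3 of the 4 groups differed by over 1 on the log2 scale, and the estimate was 2.66 ± 0.42 (limma adjusted p = 0.0741). HXK6, a hexokinase that phosphorylates glucose, had an estimate of -1.22 ± 0.20 (limma adjusted p = 0.0877). Of 58 genes of sucrose, starch and sugar transport, CIN2 was the 1 call, 26 estimates were above 0 and 32 below.

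C3H35 (LOC4338037), a zinc finger protein of the CCCH type, was the remaining call with a descriptive name. It gave 3444, 3516 and 3372 in salt-stressed IR29 and 1520 and 1734 in control IR29, and 2922, 2915 and 4184 in salt-stressed FL478 and 1739, 1793 and 1859 in control FL478. The control arrays of both lines fell in a narrow band below every salt array. C3H35 rose by 0.96 ± 0.10 (1.95-fold, limma adjusted p = 0.00318). Its other probe sets had estimates of 1.42 ± 0.29 and 0.76 ± 0.22 (limma adjusted p = 0.206 and 0.447), in the same direction.

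Of the genes known here only by a locus number, 4 rose and 1 fell. LOC4339527 gave 2556, 2297 and 2216 in salt-stressed IR29 and 680 and 771 in control IR29, and 2518, 2512 and 3167 in salt-stressed FL478 and 682, 1143 and 778 in control FL478. Its change was nearly equal in the lines, at 1.65 ± 0.20 in IR29 and 1.66 ± 0.18 in FL478, and 1.66 ± 0.13 over both (3.16-fold, limma adjusted p = 0.000186). A second, dim probe set of LOC4339527 with a mean log2 level of 4.90 had 0.18 ± 0.30 and did not show the change.

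LOC4334975 was called by 2 probe sets, with rises of 1.14 ± 0.14 and 0.93 ± 0.12 (limma adjusted p = 0.0181 and 0.0231). The other probe set of LOC4334975 had 0.99 ± 0.19 (limma adjusted p = 0.169), so all 3 moved by about the same amount. On the first, intensities were 3786, 3685 and 3300 in salt-stressed IR29 and 1659 and 2289 in control IR29, and 1917, 2837 and 2055 in salt-stressed FL478 and 762, 806 and 1048 in control FL478. IR29 was higher than FL478 under either condition on that probe set, and the groups still separated within each line. Its call ended when replicate 1 of IR29 salt, IR29 control or FL478 control, or FL478 salt replicate 3, was left out, with limma adjusted p between 0.0576 and 0.110. The second probe set kept the call in 5 of 11 such fits and lost it in 6, with limma adjusted p between 0.0567 and 0.124.

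LOC4335330 rose by 1.11 ± 0.13 (limma adjusted p = 0.0113) and LOC4339998 by 1.04 ± 0.10 (limma adjusted p = 0.00155). LOC4335330 lost the call without FL478 control replicate 1 or IR29 control replicate 1, at limma adjusted p between 0.0556 and 0.0751. LOC4324999 fell by 0.97 ± 0.09 (1.96-fold, limma adjusted p = 0.00155). Its intensities were 1924, 1508 and 1869 in salt-stressed IR29 and 3266 and 3414 in control IR29, and 1056, 1164 and 992 in salt-stressed FL478 and 1934, 2291 and 2299 in control FL478. IR29 under salt stood near FL478 controls on this gene, so the fall is visible within a line and not across the lines.

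The largest change of all 14 came from OsAffx.26317.1.S2_at, for which the annotation lists no gene. It gave 1318, 1883 and 1517 in salt-stressed IR29 and 140 and 185 in control IR29, and 904, 1582 and 1501 in salt-stressed FL478 and 73.2, 180 and 174 in control FL478. The lowest salt array was far above the highest control. The rise was 3.11 ± 0.21 (8.66-fold, limma adjusted p = 7.17e-05), at 3.17 ± 0.32 in IR29 and 3.07 ± 0.29 in FL478.

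OsAffx.27219.1.S1_at rose by 1.30 ± 0.17 (2.46-fold, limma adjusted p = 0.0253). Os.12392.1.S1_at rose by 0.85 ± 0.12 (1.80-fold, limma adjusted p = 0.0333), and it is named although the naming rule left it out, after its values were seen. With 1 array left out, OsAffx.27219.1.S1_at lost the call in 7 of 11 fits, at limma adjusted p between 0.0575 and 0.119. Os.12392.1.S1_at lost it in 8 of 11, at limma adjusted p between 0.0687 and 0.124. By contrast HKT1;5, C3H35, LOC4339527, LOC4339998, LOC4324999 and OsAffx.26317.1.S2_at kept the call in all 11 such fits.

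Just outside the threshold, 13 probe sets had a limma adjusted p between 0.05 and 0.1, 8 of them higher and 5 lower. All 13 separated within each line, against 0.802% of all probe sets above and 0.835% below the controls. They were picked by p on these same arrays, so their separation is no further evidence. With the 14 calls these 13 make up 0.0472% of probe sets tested. Among them was EXPB2, a beta-expansin that loosens cell walls, with log2 levels of 6.70, 4.62 and 4.63 in salt-stressed IR29 and 7.74 and 7.82 in control IR29. In FL478 its levels were 5.63, 4.94 and 5.65 under salt and 7.65, 7.09 and 8.51 in controls. Most of the salt values lay near the floor that the added 16 sets, so the estimate of -2.40 ± 0.40 (limma adjusted p = 0.0954) depends on that choice. BZIP52, a further bZIP factor, had -1.44 ± 0.28 (limma adjusted p = 0.197), and CMT3, a DNA methyltransferase of the chromomethylase type, had -0.43 ± 0.10 (limma adjusted p = 0.262).

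How far the lines shared the response was read in 2 ways. The fit of 4 group means called 3 probe sets (0.00524%) in IR29 alone and 5 (0.00873%) in FL478 alone. Of these, 2 and 4 were among the 14, and 10 of the 14 were called in neither line alone. For the difference between the lines limma called 0 of 57258 probe sets, with 3059, or 5.34%, at an unadjusted p under 0.05. Among the 14, the IR29 minus FL478 difference was above 0 for 9 and ranged from -0.49 to 0.66. The fit over both lines favours probe sets with like changes, so this range describes the calls only.

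Because the lines have separate arrays, ranking in one line can be read in the other. The 100 probe sets with the smallest p for a rise in IR29 had 83 estimates above 0 in FL478, with a median of 0.44, against 50.6% of all probe sets. The 100 for a fall in IR29 had 56 below 0 in FL478, with a median of -0.05, against 49.4%. Ranked in FL478, the 100 for a rise had 61 above 0 in IR29, with a median of 0.17, against 48.7%, and the 100 for a fall had 62 below 0, with a median of -0.13, against 51.3%. The rises found in IR29 thus carried over to FL478 in more probe sets than the other 3 rankings did, and this difference was not tested.

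Over all 57258 probe sets the changes in the lines had a Pearson r of 0.036, and over the 22625 with a mean log2 level of at least 7 it was 0.24. The same sign in both lines was seen for 52.4% and 57.3% of these probe sets. Probe sets of 1 array are not independent, so these are descriptions only.

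**Figure D2:**
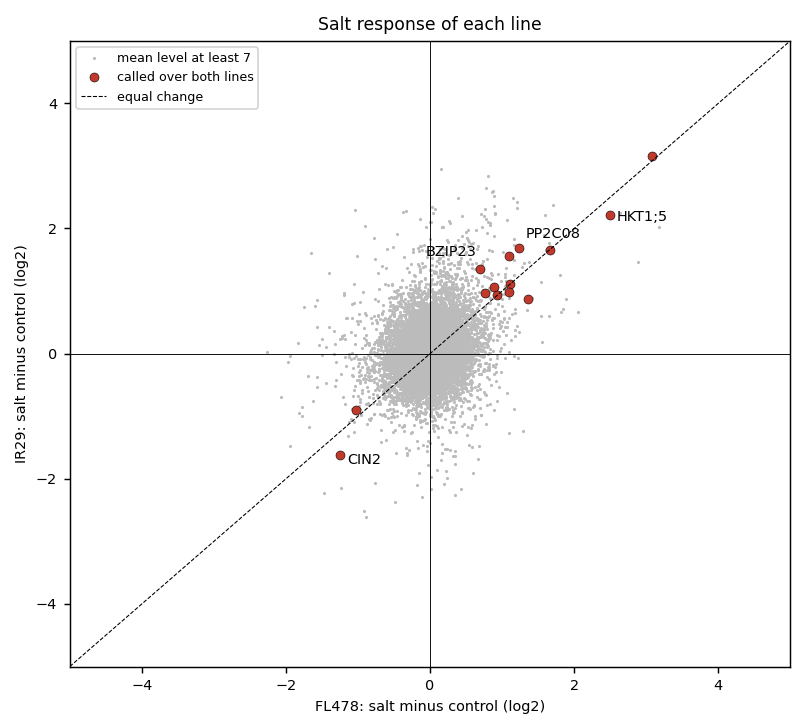
Salt minus control on the log2 scale in FL478 (horizontal) and in IR29 (vertical), for probe sets with a mean log2 level of at least 7 in grey and the 14 calls in red, with a dashed line of equal change. The calls, chosen by the fit over both lines, lie near the dashed line in the upper right and lower left. The grey cloud shows little slope, with r at 0.24.

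Dehydrins and LEA proteins, which protect cells that lose water, were followed as the classic output of ABA signalling. None of the 10 measured genes passed the test in limma, and the list's median was 0.18. At an unadjusted p under 0.05, 4 (40%) were higher and 1 (10%) lower, against 4.76% and 4.41% of all genes. RAB16C had log2 levels of 7.38, 7.45 and 7.63 in salt-stressed IR29 and 5.97 and 6.50 in control IR29, and 8.70, 8.08 and 8.88 in salt-stressed FL478 and 6.51, 7.44 and 6.31 in control FL478. The groups separated in each line, and the estimate was 1.55 ± 0.25 (limma adjusted p = 0.0831). Its neighbours on the chromosome had 1.89 ± 0.33 for RAB16B, 1.31 ± 0.29 for RAB21 and 0.18 ± 0.27 for RAB16D (limma adjusted p = 0.106, 0.262 and 0.934). RAB16B controls had low log2 levels, 5.31 and 5.40 in IR29 and 5.68, 5.86 and 6.78 in FL478. The size of its estimate thus depends on the added 16.

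These RAB genes are similar in sequence, so their probes may share signal. In each line, the mean of the whole list put all salt arrays above all controls. The log2 of the list's summed level overlapped in both lines. IR29 salt arrays spanned 12.88 to 12.94, within the span of the IR29 controls, 12.76 to 12.96. FL478 salt arrays spanned 13.03 to 13.75, and the highest FL478 control reached 13.29. Of the 10 genes, 5 had a mean log2 level under 7. The salT gene, a lectin named for its induction by salt, had -0.47 ± 0.14 (limma adjusted p = 0.462), the 1 member of the list with an unadjusted p under 0.05 for a fall. LEA19 had 0.19 ± 0.38 (limma adjusted p = 0.954). For osmolytes, P5CS2, which makes the precursor of proline, had 1.71 ± 0.37 (limma adjusted p = 0.246) with overlap between groups, and the 16 genes of that list split into 8 above and 8 below 0.

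Heat shock proteins, chaperones that hold or refold damaged proteins, had 35 of 45 estimates above 0 and a median of 0.16. In both lines 22 of them, or 48.9%, were above 0, against 27.7% of all genes. None was called by limma, and by the brightest probe sets 5, or 11.1%, had an unadjusted p under 0.05 for a rise, against 4.76% of all genes, and 0 for a fall. Among those, the small heat shock protein hsp17.9 had 0.58 ± 0.16 (limma adjusted p = 0.434), and the disaggregase CLPB1 had 0.67 ± 0.20 (limma adjusted p = 0.470). HSF4, a heat shock transcription factor in the same list, had -0.92 ± 0.23 (limma adjusted p = 0.316) on a dim probe set with salt below control in both lines. On its brightest probe set HSF4 had 0.30 ± 0.36, so its probe sets disagreed. The list's mean separated salt from control in IR29 and overlapped in FL478. By contrast, the log2 of the list's summed level put all salt arrays above all controls in each line. The lowest IR29 salt array had 16.45 and the highest IR29 control 16.36. For FL478 the gap was narrower, with the lowest salt array at 16.37 and the highest control at 16.31.

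Genes of dividing cells leaned the other way. Of 86 cyclins, kinesins, histones and replication proteins, 67 had estimates below 0 and 52, or 60.5%, were below 0 in both lines, against 28.2% of all genes. The median was -0.13, none was called by limma, and by the brightest probe sets 16, or 18.6%, had an unadjusted p under 0.05 for a fall, against 4.41% of all genes, and 0 for a rise. CYCA2-1, a mitotic cyclin, had log2 levels of 10.67, 10.75 and 10.67 in salt-stressed IR29 and 11.07 and 11.33 in control IR29. In FL478 it had 10.96, 10.66 and 10.97 under salt and 11.43, 11.03 and 11.12 in controls. The groups separated in each line by a small margin in FL478, and the estimate was -0.41 ± 0.10 (limma adjusted p = 0.316).

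CYCB2, a B-type cyclin, had -0.45 ± 0.12 (limma adjusted p = 0.361) on the probe set with its smallest p and -0.21 ± 0.16 on its brightest. MCM4, part of the replicative helicase, had -0.27 ± 0.10 (limma adjusted p = 0.570). The summed log2 level of the list was 17.59 to 17.69 in salt-stressed IR29 and 17.69 to 17.91 in control IR29. In FL478 the salt arrays reached 17.78 and the lowest control was at 17.77, so the ranges touched in both lines. In bulk tissue, fewer dividing cells and less RNA of these genes per cell cannot be told apart.

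**Figure D3:**
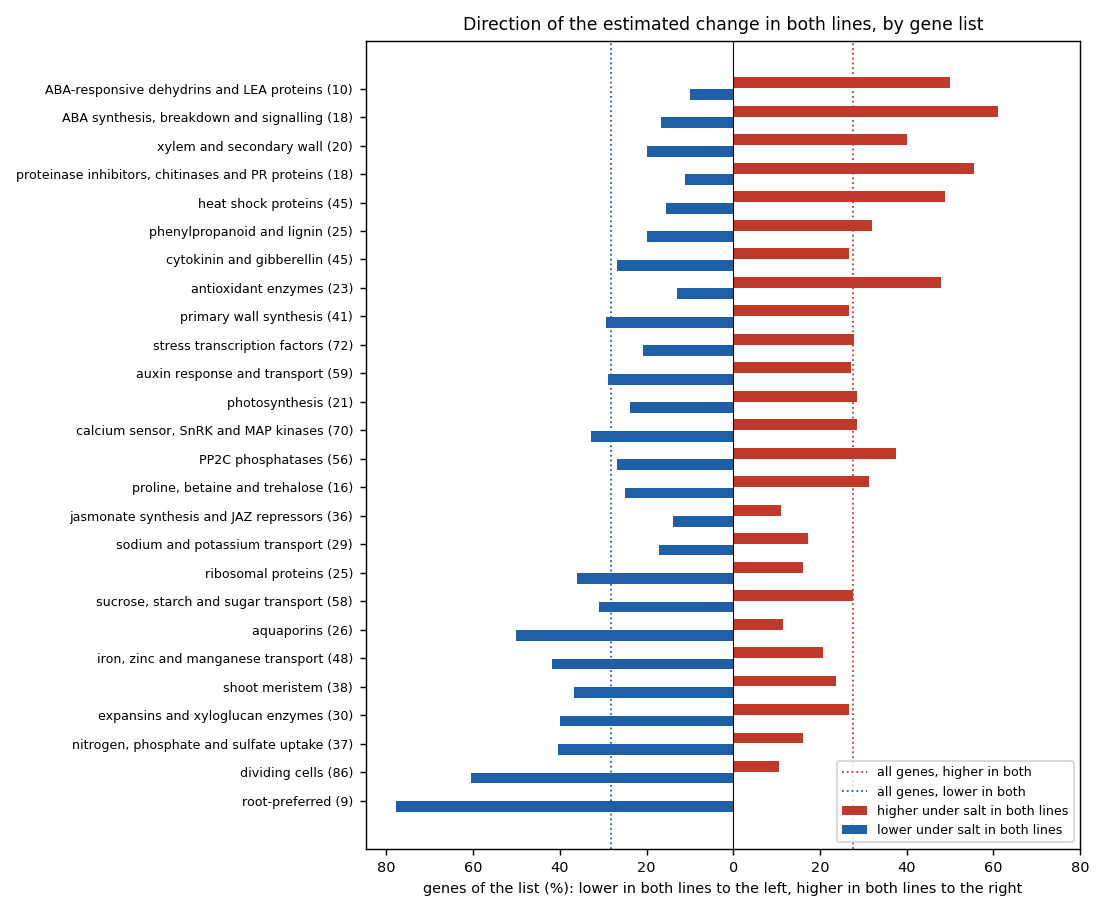
Share of each list's genes, in percent, with an estimate above 0 in both lines (red, to the right) or below 0 in both lines (blue, to the left), ordered by the list's median change, with the list size in brackets. Dotted lines give the same for all genes, at 27.7% and 28.2%. On the lower side the 9 root-preferred genes reach 77.8% and dividing cells 60.5%.

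The other lists that mark tissues gave shifts that differed in size and direction. Root-preferred genes had 8 of 9 estimates below 0, a median of -0.36 and 0 calls. In both lines 7 of them, or 77.8%, were below 0, against 28.2% of all genes. At an unadjusted p under 0.05 in limma, 1 (11.1%) was lower, against 4.41% of all genes. Their summed log2 level was 11.92 to 12.65 in salt-stressed IR29 and 12.06 to 12.87 in control IR29, and 11.67 to 13.10 in salt-stressed FL478 and 12.51 to 13.41 in control FL478. The ranges overlapped in both lines. Photosynthesis genes split into 11 above and 10 below 0, and shoot meristem genes into 14 above and 24 below.

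Xylem and secondary wall genes had 11 of 20 estimates above 0, with 0 calls. At an unadjusted p under 0.05 in limma, 6 (30%) were higher and 2 (10%) lower, against 4.76% and 4.41% of all genes. CESA4, CESA7 and CESA9, the cellulose synthases of the secondary wall, had 0.77 ± 0.16, 0.64 ± 0.15 and 0.77 ± 0.22 on their brightest probe sets (limma adjusted p = 0.206, 0.295 and 0.447). The probe set of CESA4 with the smallest p had 0.72 ± 0.13 (limma adjusted p = 0.130). BC1L2, a COBRA-like protein of the same list, had -0.46 ± 0.09 (limma adjusted p = 0.198), with salt below control in both lines. The estimate of CESA7 was 0.86 in IR29 and 0.46 in FL478, and that of CESA9 was 1.43 in IR29 and 0.24 in FL478. The list's summed log2 level was 13.97 to 14.29 in salt-stressed IR29 and 13.45 to 13.65 in control IR29, and 13.80 to 13.95 in salt-stressed FL478 and 13.80 to 13.83 in control FL478. It separated in IR29 and overlapped in FL478. HKT1;5 is expressed in cells around the xylem, and the part of these shifts in tissue markers in any result above was not tested.

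Aquaporins, channels for water, had 17 of 26 estimates below 0, and 13, or 50%, were below 0 in both lines, against 28.2% of all genes. At an unadjusted p under 0.05 in limma, 1 (3.85%) was higher and 0 lower, and the list's mean overlapped in both lines. RWC3 had 1.31 ± 0.36 and PIP2a -0.18 ± 0.08 (limma adjusted p = 0.421 and 0.710), both with overlap between groups. Jasmonate genes were split by line, with medians of 0.25 in IR29 and -0.23 in FL478, and 4 of 36 were above 0 and 5 below 0 in both. Stress transcription factors had 37 of 72 above 0 and no call, with 4 (5.56%) higher and 2 (2.78%) lower at an unadjusted p under 0.05 in limma, near the 4.76% and 4.41% of all genes.

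Defence and antioxidant genes had more estimates above 0 than below, with 0 calls in limma. Of 18 proteinase inhibitors, chitinases and PR proteins, 10 (55.6%) were above 0 in both lines, against 27.7% of all genes. For 3 (16.7%) a rise had an unadjusted p under 0.05, against 4.76% of all genes. PBZ1, a PR protein, had log2 levels of 9.64, 11.02 and 7.36 in salt-stressed IR29 and 6.91 and 6.59 in control IR29, and 8.10, 8.48 and 7.77 in salt-stressed FL478 and 7.02, 7.76 and 6.97 in control FL478. The salt arrays were above the controls of their line, narrowly so in FL478, and the estimate was 1.63 ± 0.53 (limma adjusted p = 0.524). Of 23 antioxidant enzymes, 11 (47.8%) were above 0 in both lines. At an unadjusted p under 0.05, 4 (17.4%) were higher and 1 (4.35%) lower, against 4.76% and 4.41% of all genes. The ascorbate peroxidase APX8 had 0.47 ± 0.14 (limma adjusted p = 0.476). The phenylpropanoid and lignin genes differed by line, with medians of 0.23 in IR29 and -0.11 in FL478.

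Uptake genes lay mostly below 0, again with 0 calls in limma. Of 37 genes of nitrogen, phosphate and sulfate uptake, 24 were below 0. At an unadjusted p under 0.05, 2 (5.41%) were lower, near the 4.41% of all genes. GS1;2, a cytosolic glutamine synthetase that assimilates ammonium, had -0.52 ± 0.12 (limma adjusted p = 0.295), with no overlap in either line. Of 48 genes of iron, zinc and manganese transport, 29 were below 0, with 3 (6.25%) higher and 3 (6.25%) lower at an unadjusted p under 0.05, near the shares of all genes. Auxin genes split into 31 above and 28 below 0, and PIN5, an auxin carrier, had -1.13 ± 0.31 (limma adjusted p = 0.426). Genes of primary wall synthesis split into 24 above and 17 below. At an unadjusted p under 0.05, 3 (7.32%) were higher and 5 (12.2%) lower, against 4.76% and 4.41% of all genes. CESA3, a cellulose synthase, had 0.36 ± 0.09 (limma adjusted p = 0.315), and CSLD4 had -0.34 ± 0.10 (limma adjusted p = 0.476). Both separated in each line.

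**Figure D4:**
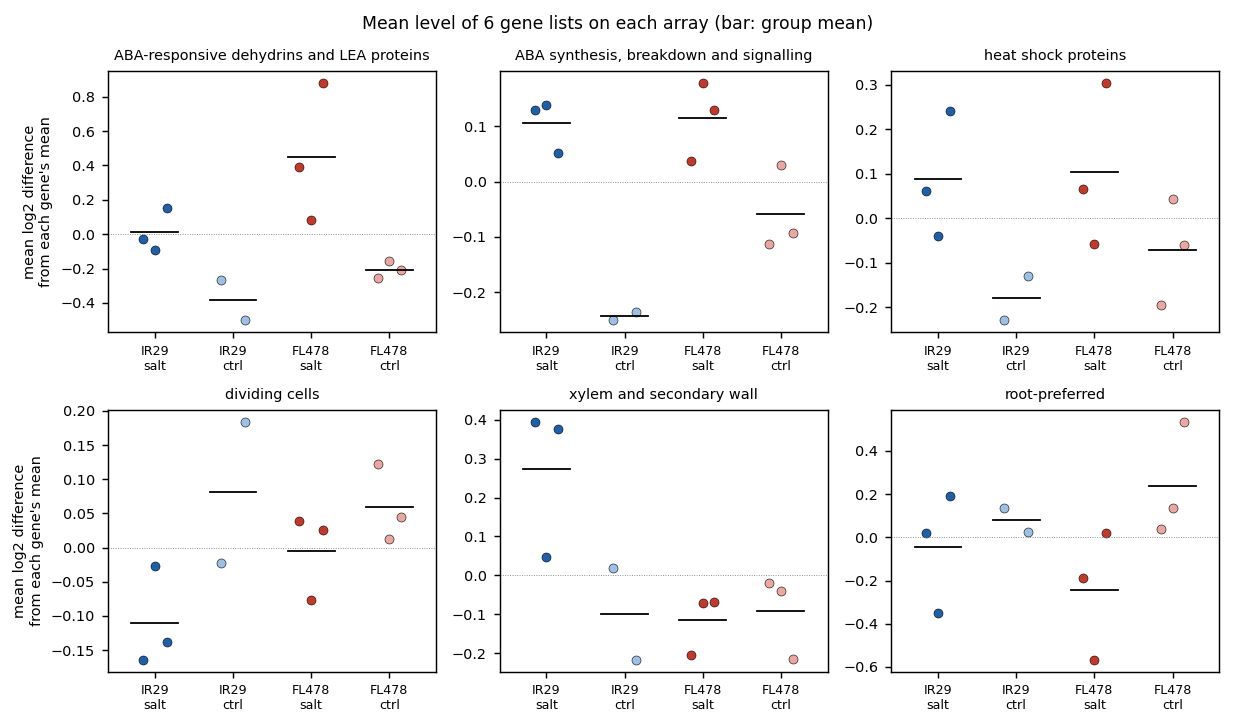
Mean over the genes of 6 lists of the log2 difference from each gene's own mean over the 11 arrays, by array, with IR29 and then FL478 on the horizontal axis, salt left of control, and bars for group means. By this mean, salt and control separate in both lines for the ABA and the dehydrin and LEA lists. They separate in IR29 alone for heat shock, xylem and dividing cells, and in FL478 alone for root-preferred genes.

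Arrays differed in ways the groups do not explain. Median intensity ranged from 48.2 to 73.1, and between 24.4% and 30.4% of probe sets lay under 16. IR29 control replicate 1 and FL478 salt replicate 2 stood apart on principal components 2 and 4, which held 13.2% and 8.76% of the variance. FL478 control replicate 3 lay on the same side of component 2 as IR29 control replicate 1, at -67.5 against -95.1. Without FL478 control replicate 3, 16 probe sets were called, of which 13 were among the 14. Without IR29 control replicate 1, 6 probe sets were called, all of them among the 14, and without FL478 salt replicate 2 there were 10, of which 9 were among the 14. The log2 ratio of 3′ to 5′ signal of the cyclophilin control, a sign of RNA integrity, was 0.998 to 1.16 in salt-stressed IR29, against 0.707 and 0.907 in control IR29. The FL478 ratios were 0.693 to 1.24 with salt and 0.411 to 0.880 without, so they overlapped. The actin ratio also separated in IR29, at 0.658 to 0.786 with salt and 0.481 and 0.504 without, and overlapped in FL478. The GAPDH ratio overlapped in both lines, and the part of these ratios in the results was not tested.

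**Figure D5:**
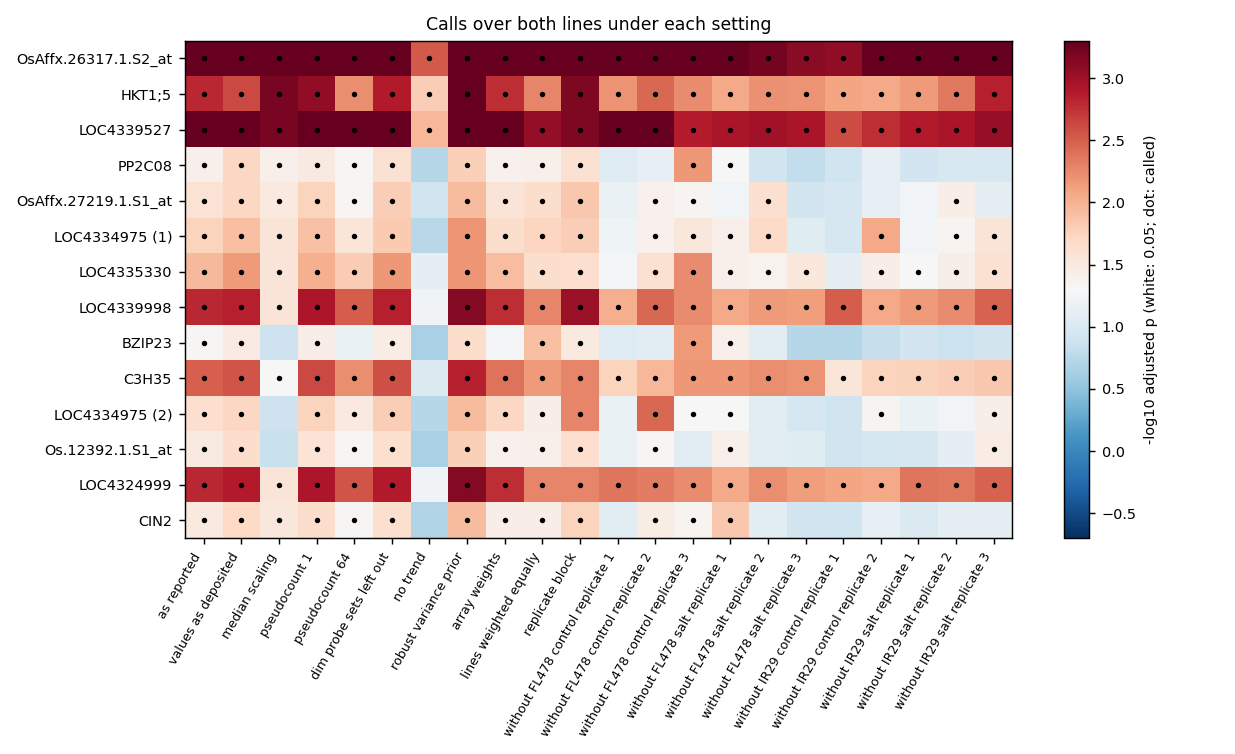
Adjusted p of the 14 called probe sets (rows) as reported and under each of 21 alternative settings (columns), as -log10, with white at 0.05, red below it and a dot for a call. HKT1;5, LOC4339527 and OsAffx.26317.1.S2_at keep the call in all 21 and BZIP23 in 8.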

How the data were processed

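The deposited values are signal intensities, 1 per probe set and array, made by the authors with GCOS 1.2 per the submitters' processing notes. A trimmed mean of 500.1 on every array shows that they had been scaled; no label used here names further steps. The 123 control probe sets among 57381 were left out, and dim probe sets were kept. The constant 16 was added to each intensity before log2 and quantile normalization. The model, line plus salt, was fitted by limma 3.58.1 (R 4.3.3), with a variance prior that follows the mean level and 8 residual degrees of freedom. Tests were two-sided and adjusted by Benjamini-Hochberg over 57258 probe sets. Changes per line and their difference came from a fit of 4 group means. The scripts were tested on simulated data. The number of arrays limits the precision. Python 3.11.15 with pandas 2.3.3 and, for plots, matplotlib 3.10.9 did the rest.

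The array's annotation gave 1 gene for 22436 probe sets, several for 95 and none for 34727, in all 17905 genes. All were found in the RefSeq table of assembly ASM3414082v1, used for names and neighbours only. The members and lists were chosen with earlier results of these data known. Lists were symbol patterns, and 62 of 1023 memberships were removed after values were seen because an alias belonged to another family. A gene's brightest probe set stood for it in the lists. Genes named are the called ones with a symbol, filled to 6 per direction by smallest p, the 5 largest changes per direction of locus numbers, the 2 of probe sets with no gene, and up to 4 called, or the 2 of smallest p, per list. Other members given beside them were chosen after their values were seen.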

Additional observations from a re-analysis of the deposited data

How the results depend on the processing

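Alternatives were the values as deposited, median scaling, an added constant of 1 or 64, dim probe sets left out, other variance priors, array weights, equal weight of the lines, the replicate number as a block, and each array left out. The number of calls, 14 as reported, was 3 (3 higher, 0 lower, 3 without overlap in each line) with no trend in the variance prior, and 24 (7 lower, 24 without overlap) with a robust prior. It was 23, of which 21 were higher, with a replicate block, and these held all 14. Deviations from the group mean had correlations of -0.05 to 0.13 over 15 pairs of same-numbered arrays, with a median of 0.026. For other arrays they were -0.15 to 0.15 over 30 pairs, with a median of -0.008. Deviations within a group sum to 0, so the pairs are not independent. These values cannot decide whether the numbers pair the samples. With 1 array left out, calls ranged from 6 to 22, those higher from 5 to 20, those lower from 1 to 2, and those without overlap from 6 to 22, while calls for the line difference stayed at 0. The lowest counts came without FL478 control replicate 1 (6), IR29 control replicate 1 (6), FL478 salt replicate 3 (7) and IR29 salt replicate 1 (8), and the highest without FL478 control replicate 2 (22, of which 12 were among the 14). Fewer arrays were fitted in these, and otherwise the cause was not tested. No gene chosen by the naming rule reversed its sign in any alternative. Over the 21 alternatives 225 values of the 14 calls kept the call and 69 did not. With the mean of a gene's probe sets, 3 of 26 list medians changed sign. On each array 24.4% to 30.4% of probe sets lay under the added constant, and their folds are compressed.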
